A study of Mus musculus with 15 samples.

Results

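Dense clusters of neighbouring peaks are stretches of the genome in which many sites of open chromatin lie close together. They were defined here by position alone. Autosomal peaks of the merged count table were joined into a chain whenever the gap from the end of a peak to the start of the next was at most 12.5 kb, and chains of 10 or more peaks were kept. This gave 471 chains, holding 6129 of the 66381 autosomal peaks, among 30151 chains of any size. The counts of a chain's peaks were summed in each sample, and levels are given in CPM, the count relative to the library's total after scaling by the trimmed mean of M values (TMM).

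ATAC-seq, in which a transposase cuts and tags accessible DNA, was performed on pancreatic tumour cell clones of the C57BL/6 strain that had been placed under the skin of untreated C57BL/6 mice. Tumours were taken at 3 weeks and 50000 tumour cells were sorted from the tumour of each clone. The labels class a clone by the T cells of its tumours, and the table holds 6 clones labelled high (2838c3, 6421c2, 6499c4, 6555c3, 6620c1 and 7160c2) and 7 labelled low (6694c2, 6556c3, 6499c3, 6422c1, 6419c5, 6419c1 and 2699c4). The other 2 listed clones, labelled intermediate, were not analysed here. Each library was a separate clone with 1 tumour, so that spread between clones and spread between tumours cannot be told apart, and the labels name neither the sorting marker nor the driver alleles.

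Open sites that crowd together are often enhancers and promoters of strongly used genes, and dense enhancer groups are known to lie at genes that set a cell's identity or answer growth signals. In pancreatic tumour cells, which carry an active RAS pathway as a rule, the transcription factor AP-1 and the feedback phosphatases of the MAP kinase pathway are well known users of such elements. An ATAC-seq count is a measure of cut DNA and not of transcription.

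Autosomal totals ran from 953905 counts in 7160c2 to 7180908 in 6419c1, and the shallowest library still had a median of 162 counts per chain and at least 45. Promoter-window peaks of the epithelial list summed to 294 to 601 CPM in the high and 302 to 533 CPM in the low clones. A peak stood at 15 of the 19 genes that had a window, and none at Epcam, Cldn1, Ovol2 or Rab25. The mesenchymal list summed to 202 to 321 CPM in the high and 209.9 to 343 CPM in the low clones. Its peaks stood at 11 of 15 genes, among them Vim (49.4 to 141 CPM) and Zeb2 (8.17 to 46.1 CPM), and none at Col1a2, Col3a1, Fbn1 or Prrx1. Those at Sparc (1.06 to 12.4 CPM) and Twist2 (0 to 10.1 CPM) were weak, and that at Twist1 ran from 0.536 to 56.9 CPM. The leukocyte list had a peak at 5 of 22 genes, and none at Cd3e or Cd8a. The peaks at Cd53 and S100a8 had too few counts to be tested. Those at Ptprc (5 to 23 CPM), Cd68 (1.90 to 19.2 CPM) and Coro1a (0.622 to 7.59 CPM) were summed. The sum was 13.4 to 34.8 CPM in the high and 16.7 to 33.1 CPM in the low clones. Peaks stood at 2 of 11 fibroblast and endothelial genes (Acta2 and Postn, 9.88 to 30.2 CPM in sum) and at 2 of 14 acinar and islet genes (4.67 to 26.6 CPM). The part of such cells in the results below was not tested. In a bulk library, fewer cells with a site open and less opening per cell cannot be told apart.

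The sequences that follow come from RefSeq (GRCm38.p6) and belong to genes on which the results turn. The promoter windows run from 250 bases before to 50 bases after a transcript start, and each overlaps a peak of a chain whose level differed widely between clones. Capitals mark matches on either strand to the AP-1 motif TGANTCA or to CACCTG, the E-box read by ZEB and SNAI factors. The Cldn4 and Cldn3 windows lie in the same chain, at chr5:134946885-134947184 (minus strand) and chr5:134985964-134986263 (plus strand). The Mdfic window is chr6:15720411-15720710 (plus strand) and the Oaf window is chr9:43239767-43240066 (minus strand).
Cldn4 promoter window: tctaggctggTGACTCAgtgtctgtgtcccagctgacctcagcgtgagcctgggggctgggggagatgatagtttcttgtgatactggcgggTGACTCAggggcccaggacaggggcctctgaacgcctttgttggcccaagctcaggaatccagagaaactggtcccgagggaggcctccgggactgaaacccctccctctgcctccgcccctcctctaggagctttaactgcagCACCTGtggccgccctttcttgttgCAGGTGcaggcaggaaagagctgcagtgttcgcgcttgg
Cldn3 promoter window: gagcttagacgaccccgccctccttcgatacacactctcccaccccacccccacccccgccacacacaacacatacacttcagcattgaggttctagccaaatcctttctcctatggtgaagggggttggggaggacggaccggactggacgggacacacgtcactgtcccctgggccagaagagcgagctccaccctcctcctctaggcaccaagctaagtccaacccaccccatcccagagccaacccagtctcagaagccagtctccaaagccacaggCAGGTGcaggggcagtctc
Mdfic promoter window: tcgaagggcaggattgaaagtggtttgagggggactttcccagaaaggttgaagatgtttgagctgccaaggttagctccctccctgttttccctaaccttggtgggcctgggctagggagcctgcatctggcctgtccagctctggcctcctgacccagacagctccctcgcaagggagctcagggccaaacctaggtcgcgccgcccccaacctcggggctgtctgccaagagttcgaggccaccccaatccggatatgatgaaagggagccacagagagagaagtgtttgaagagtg
Oaf promoter window: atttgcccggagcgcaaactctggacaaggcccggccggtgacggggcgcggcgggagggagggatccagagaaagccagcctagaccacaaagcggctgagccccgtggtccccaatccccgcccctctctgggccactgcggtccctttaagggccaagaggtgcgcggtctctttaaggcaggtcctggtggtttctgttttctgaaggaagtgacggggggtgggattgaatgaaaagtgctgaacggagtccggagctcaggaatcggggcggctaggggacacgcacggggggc

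The Cldn4 window held 2 matches to TGANTCA and 2 to CACCTG, the Cldn3 window held 1 match to CACCTG, and neither string occurred in the Mdfic and Oaf windows. Of 721 windows that overlapped a peak of a dense chain, 7.07% held TGANTCA and 20.2% held CACCTG. The shares were 5.32% and 17.9% among the 11061 windows that overlapped any autosomal peak, and 7.06% and 20% among all 20084 windows. The GC box GGGCGG was in 64.8% of the windows at dense chains, 68.0% of those at any peak and 47.0% of all windows. The string CCAAT was in 35.5%, 38.3% and 38.1%. A window was given for 16456 genes of the 20661 autosomal protein-coding genes, so a count of promoter peaks below covers those genes only.

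The dense chains also held 34 of 919 autosomal microRNA genes (3.70%), in 30 chains. MicroRNAs bind messenger RNAs mainly through bases 2 to 8, the seed, printed here in capitals.
mmu-miR-200c-3p: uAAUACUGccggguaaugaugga
mmu-miR-141-3p: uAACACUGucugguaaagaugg
mmu-miR-29a-3p: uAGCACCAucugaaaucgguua
mmu-miR-29b-3p: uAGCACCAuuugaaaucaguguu
mmu-miR-21a-5p: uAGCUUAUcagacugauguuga
mmu-miR-92b-3p: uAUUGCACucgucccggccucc
mmu-miR-192-5p: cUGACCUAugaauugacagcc
mmu-miR-194-5p: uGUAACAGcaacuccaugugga

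The hairpins of miR-141 and miR-200c, microRNAs known to hold the epithelial state, lie at chr6:124717914-124717985 and chr6:124718322-124718390 in the chain named for Lpcat3. Their seeds differ, miR-141 sharing its seed with miR-200a and miR-200c with miR-200b and miR-429. The tested peak of the chain nearest both hairpins lay 5078 bp from miR-141 and 5486 bp from miR-200c. Both hairpins are on the minus strand, and the peak lies downstream of them. Its link to these microRNAs was not tested. It had 38.4 to 70.8 CPM over the 13 clones, with 60.1 ± 7.69 CPM (SD, n = 6) in the high and 51.7 ± 11.5 CPM (SD, n = 7) in the low clones. The groups overlapped and the edgeR adjusted p was 0.862. The miR-29a and miR-29b-1 hairpins share a seed and lie in the non-coding gene Lncpint, in a chain of 20 peaks whose summed level was 325 ± 33.8 CPM in the high and 276 ± 22.0 CPM in the low clones (edgeR adjusted p = 0.695). The chain at Vmp1, which holds Mir21a, a microRNA gene often active in tumours, had 299.8 ± 60.7 CPM in the high and 312 ± 78.2 CPM in the low clones (adjusted p = 0.963). Mir192 and Mir194-2, microRNAs of gut and liver epithelium, share 1 nearest peak, which had 2.17 to 12.3 CPM (median 5.08 CPM). The median level of the tested peaks of dense chains was 11.1 CPM. Mir92b lies in the chain that spans Muc1, and its nearest peak had 9.21 to 33.0 CPM.

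The 471 chains spanned 22.2 to 197 kb (median 58.5 kb), 29.7 Mb in all, and held 10 to 34 peaks (median 12). Their peaks covered a median of 15.5% of the span. The shortest, with 13 peaks in 22.2 kb at chr2:180213512-180235744, lay on Lama5, a laminin chain of epithelial basement membranes. Chromosome 8 held the most chains (40) and chromosome 16 the fewest (10). Chains of exactly 10 peaks numbered 106, with a median span of 47.9 kb and a median level of 142 CPM, beside 43.9 kb and 132 CPM in the 200 chains of 9 peaks just outside the rule. A shorter gap of 5000 bp left 11 chains of 10 or more peaks and a longer one of 25000 bp gave 1504, so the number of members rests on the chosen gap.

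Peaks of dense chains were mostly distal, as were those of smaller chains. In dense chains 9.89% of peaks overlapped a promoter window. Over 1 kb from every end of a protein-coding gene lay 83.1%, peaks inside genes included. These shares were 11.8% and 82.8% in chains of 9 peaks, and 12.8% and 81.8% in chains of 2 to 8. They were 17% and 78.4% for the 16110 peaks with no neighbour inside the gap. In 180 dense chains no peak overlapped a window, and the strongest peak was at a window in 182. That strongest peak gave a median of 24.2% of a chain's counts (8.67% to 57.3%), so the sums were seldom those of 1 site. Peaks of dense chains made up 9.23% of autosomal peaks and took 9.63% of the counts.

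The chains overlapped 1026 protein-coding genes, 4.97% of those on the autosomes. In 202 chains there was 1 gene, in 104 there were 2, in 80 there were 3 to 5 and in 40 there were 6 or more, up to 18, while 45 had none. The chain with the most peaks (34, chr5:90588775-90786251) ran from Rassf6 over Cxcl5, Ppbp, Pf4 and Cxcl3, which encode CXC chemokines. The chain of 32 peaks at chr3:89136265-89323285 covered Muc1, a mucin of ductal epithelium, and Efna1, an ephrin ligand. It had the highest summed level of all (mean 560.3 CPM), and such a sum grows with the number of peaks. Next by peaks came Tgm2 (26 peaks), Pacsin2 (25), and 24 each at a histone gene cluster of chromosome 13, at Lmna, at Tnfrsf1b, at Dusp1 and at Impa2, then Bcl3 (23). By level the Muc1 chain was followed by Bhlhe40, a repressor that answers stress (538 CPM), F3, which encodes the tissue factor that starts coagulation (519.5 CPM), Jund (501 CPM), Gnai2 (492 CPM) and Junb (485 CPM). Chains at Lpcat3, at a group of S100 genes, at Cystm1 and at Anapc2 followed, with 457 to 427 CPM.

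Genes of the AP-1 and RAS-MAPK feedback list were spanned most often, 15 of 33 (45.5%). They included the AP-1 subunit genes Fosb, Fosl1, Junb, Jund and Atf3, the MAP kinase phosphatase genes Dusp1, Dusp5 and Dusp6, and the EGF receptor ligand genes Ereg and Hbegf. Of the epithelial adhesion and keratin list 11 of 34 (32.4%) were spanned, with Cdh1, Krt7, Krt8, Krt18, Cldn3, Cldn4 and Cldn7 among them. The chemokine and cytokine list had 7 of 30 (23.3%), the TGF-beta, BMP and WNT list 6 of 36 (16.7%), the pancreas and endoderm factors 4 of 28 (14.3%; Foxa2, Gata4, Hes1 and Pdx1) and the housekeeping list 3 of 18 (16.7%). Antigen presentation and checkpoint genes had 3 of 27 (11.1%), mesenchymal genes 2 of 23 (8.70%) and leukocyte markers 2 of 34 (5.88%). No gene of the Hox list (39 matched), of the fibroblast and endothelial markers (19) or of the acinar and islet markers (15) was spanned. These shares are descriptions of lists chosen with earlier results known, and long genes have more room to overlap a chain.

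**Figure D1:**
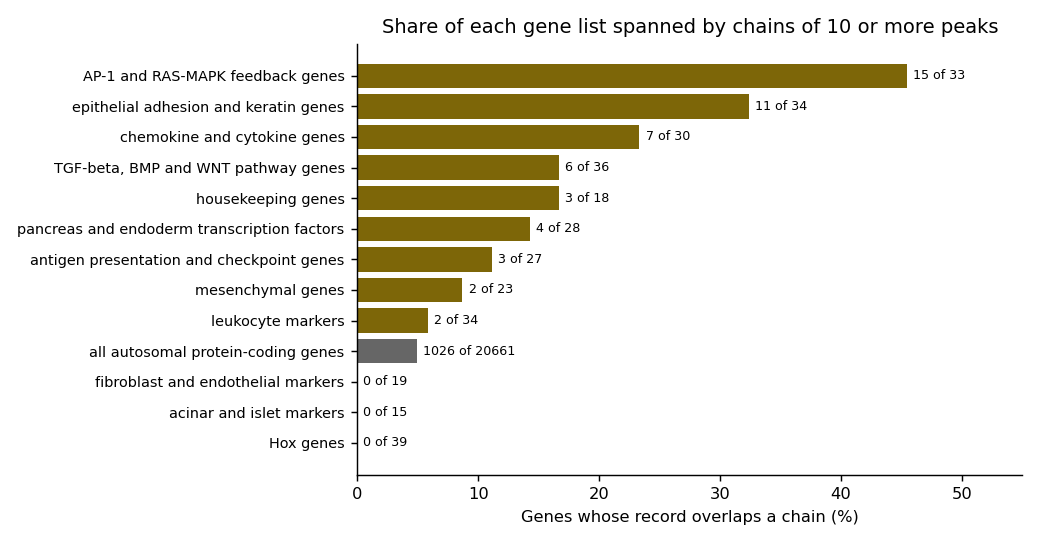
Percent of the genes of each list whose gene record overlaps a chain of 10 or more peaks, with the counts beside the bars and all autosomal protein-coding genes in grey. AP-1 and RAS-MAPK feedback genes reached 45.5% and all coding genes 4.97%.

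The 15 chains at AP-1 and RAS-MAPK feedback genes spread between clones by a median SD of log2 CPM of 0.29, beside 0.30 over all dense chains. The chain at Atf3, a stress-induced partner of JUN (12 peaks, chr1:191169494-191233910), had 248 to 335 CPM over the 13 clones, with 299 ± 20.8 CPM (SD, n = 6) in the high and 279.7 ± 33.5 CPM (SD, n = 7) in the low clones. Its SD of log2 CPM, 0.15, was among the 5 smallest, and it was 0.25 when the log2 CPM of the peaks were averaged in place of summing their counts. The Jund chain (21 peaks, chr8:70609224-70703105) had 462 ± 41.9 CPM in the high and 535 ± 89.0 CPM in the low clones, and its highest clone was 6499c3 at 659 CPM. The Junb chain (15 peaks, chr8:84952536-84998571) ranged more, from 307 CPM in 6556c3 to 758 CPM in 6421c2. At Dusp1, whose product switches MAP kinases off, 6499c3 stood apart with 416 CPM against at most 274 CPM elsewhere.

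Differences between clones were moderate in most chains and large in a few. The SD of log2 CPM over 13 clones had a median of 0.30 (0.12 to 1.39), and the highest clone exceeded the lowest by a median of 2.07-fold. That ratio was at least 2 in 269 chains and at least 4 in 17. The SD exceeded 0.5 in 24 chains. The median SD was 0.32 in chains of 9 peaks, 0.47 in chains of 2 to 8 and 0.71 in lone peaks, where the median total count fell from 7468 in dense chains to 5237, 1363 and 340, so that the lower spread of dense chains comes with deeper counts.

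Part of the spread was shared with the surroundings. The regional signal of a clone was taken as its median shift over peaks outside the chain and within 2 Mb. After it was subtracted the median SD was 0.23, and 14 chains had an SD over 0.5. The correlation between a chain and its region over 13 clones had a median r of 0.66, a description of values that share a library. Peaks of the same chain had a low median r of 0.20 over 34213 pairs. It was 0.08 for pairs on the same chromosome over 2 Mb apart and 0.01 for pairs on different chromosomes. Single tested peaks of dense chains had a median level of 11.1 CPM, so these r values rest on few counts in shallow libraries. The part of counting noise in them was not tested. The mean r within a chain was highest near Myc (0.89), at Gab1 (0.64) and at Mdfic (0.61).

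**Figure D2:**
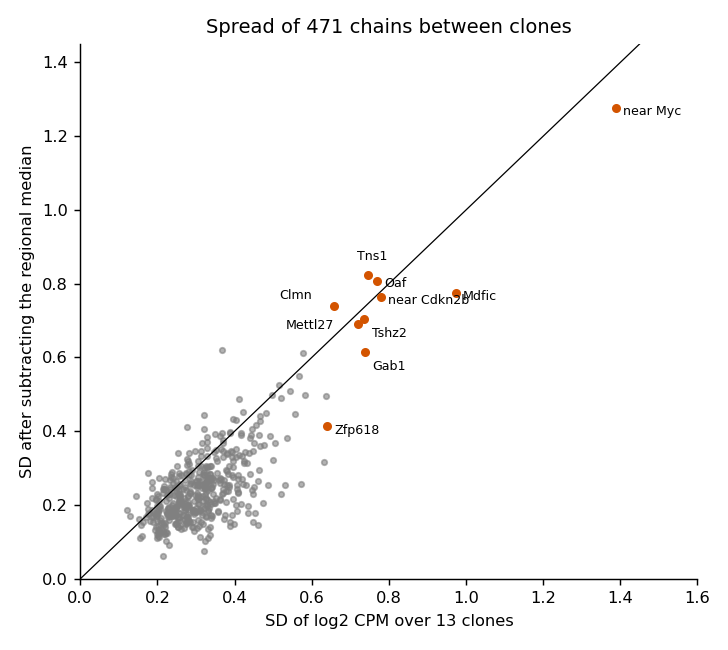
SD of log2 CPM over 13 clones for each of the 471 chains, before (x axis) and after (y axis) the regional median was subtracted; the line marks equality and the 10 chains of largest spread are orange. Most points lie below the line, while the chain near Myc keeps an SD of 1.28.

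In several of the chains with the largest spread, as near Myc, at Mdfic and near Cdkn2b, 1 clone lay far from the next. Over all members, 44 had a clone at least 1 log2 unit from the chain's median, 34 of them with 1 such clone, 9 with 2 and 1 with more. After the regional signal was subtracted, 21 chains had such a clone.

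The widest spread was at chr15:62105344-62152448, 11 peaks inside Pvt1, a non-coding gene next to Myc, the growth-promoting transcription factor gene 114983 bp away. Clone 2699c4 (low) had 2845 CPM, while the other 12 clones lay between 68.0 and 119.8 CPM. The SD was 1.39 with that clone and 0.23 without it. Whether this stretch would hold 10 peaks without 2699c4 cannot be told from the merged peaks. All 9 tested peaks of the chain were higher in 2699c4, by 4.12 to 5.22 log2 units over the median of the others. The rise did not stop at the chain: 51 consecutive tested peaks over 639.5 kb (chr15:61875029-62514574), a stretch that runs past Myc, were each at least 1 log2 unit higher. The next peak 9.79 kb before that stretch was at -0.84 and the next after it, 54.5 kb on, at -0.30.

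The chain at Mdfic was nearly lost in 6421c2 (high). Its 13 peaks at chr6:15720349-15790512 summed to 19.1 CPM there, 61 counts, against 174 to 279 CPM in the other 12 clones, a 10.2-fold lower level than their median. All 12 tested peaks were at least 1 log2 unit lower (-4.60 to -1.49), the peak over the Mdfic window printed above among them, with 4.36 CPM against 24.5 to 51.9 CPM elsewhere. Without this clone the SD fell from 0.97 to 0.24. The 7 tested peaks within 250 kb after the chain had a median of -1.68, and no tested peak lay in the 250 kb before it.

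Near Cdkn2b, the gene of a cyclin-dependent kinase inhibitor that lies 114899 bp away, 22 peaks at chr4:89425931-89530562 had no protein-coding gene among them. Clone 6694c2 (low) had 47.4 CPM, and the other clones 212 to 454 CPM. Of the 22 peaks, 15 had no count at all in 6694c2, while 3 of the last 4 peaks at the far edge kept theirs, at -0.25, 0.61 and 0.17 log2 units from the median of the other clones. On the side of Cdkn2b 10 further tested peaks were lower in a row, over 168 kb and past the gene. The peak beyond them was at -0.11. The SD without this clone was 0.33.

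At Tshz2, the gene of a zinc finger homeobox factor (10 peaks, chr2:169607777-169655905), 6419c1 (low) had 19.5 CPM, against 76.4 to 156 CPM elsewhere and 85.5 CPM in 6419c5, the clone whose name shares its number. Outside the chain 7 peaks before it and 1 after it were in turn at least 1 log2 unit lower, a run of 634 kb with the chain. A peak at -0.62 ended that run, and the 7 peaks within 250 kb after the chain had a median of -1.49. At Oaf (11 peaks, chr9:43221710-43264476), 6499c4 (high) had 20.1 CPM, and 6499c3, which shares its number, 103 CPM. The other clones had 74.0 to 214 CPM, the highest being 6422c1. All 9 tested peaks of the Oaf chain were at least 1 log2 unit lower in 6499c4, the peak over the window printed above at -2.19. The 7 peaks in the 250 kb before the chain had a median of 0.04 and the 2 after it -0.92. Farther out, peaks were low again, at -2.09 at 371 kb before the chain's centre and at -3.06 at 501 kb after it.

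At Tns1, the gene of the focal adhesion protein tensin (10 peaks, chr1:74058134-74099031), 6555c3 (high) was lowest with 15.3 CPM, and 6499c4 followed with 24.8 CPM. In 6555c3 the 12 peaks within 250 kb on 1 side of the chain had a median of -2.04, and the 17 peaks on the other side a median of 0.38. At Gab1, an adaptor of growth factor receptors (chr8:80835691-80880837), 6421c2 was highest with 438 CPM, then 6422c1 with 281 CPM, and 2838c3 and 6556c3 were lowest with 73.5 and 75.9 CPM. Its 8 tested peaks were all over 1 log2 unit higher in 6421c2. In that clone the 4 tested peaks within 250 kb before the chain had a median of 0.76, and the 5 after it -0.35. After the regional signal was subtracted, 6421c2 lay at least 1 log2 unit above the median in 0 dense chains, so Gab1 did not keep that distance. At Clmn and Zfp618, 2699c4 was lowest with 41.8 and 35.4 CPM, but the next clones followed closely at 56.6 and 52.3 CPM. Whether the number of DNA copies or the state of the chromatin differed at these places was not tested.

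**Figure D3:**
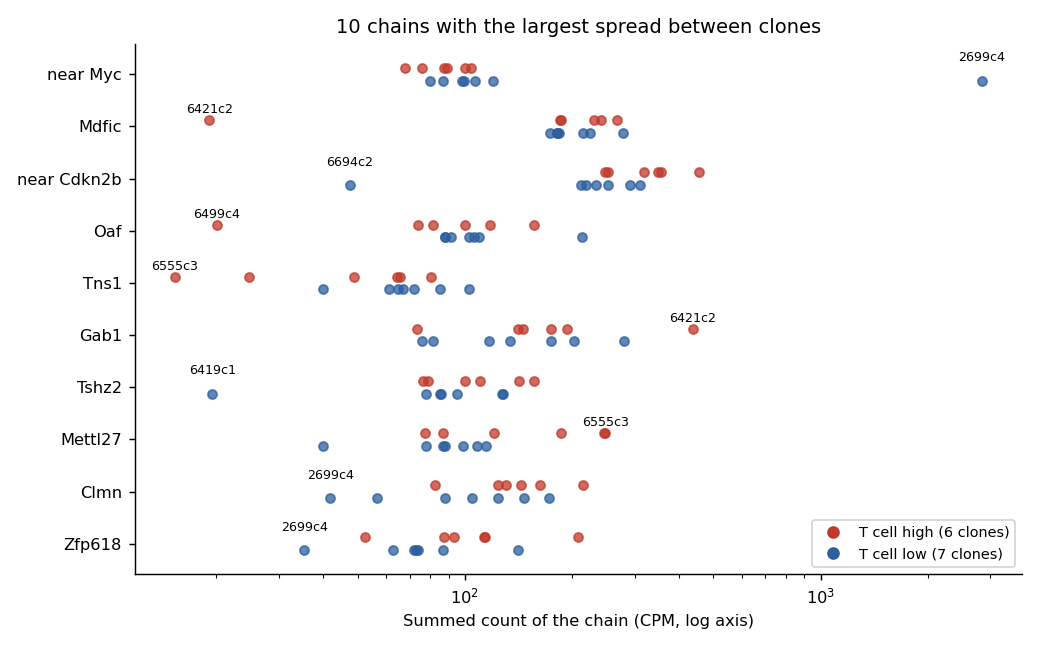
Summed level (CPM, log axis) of the 10 chains with the largest spread, 1 point per clone, red for 6 T cell high and blue for 7 T cell low clones, with the clone farthest from the median named. The clone 2699c4 lies at 2845 CPM near Myc, and 6421c2 at 19.1 CPM at Mdfic.

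**Figure D4:**
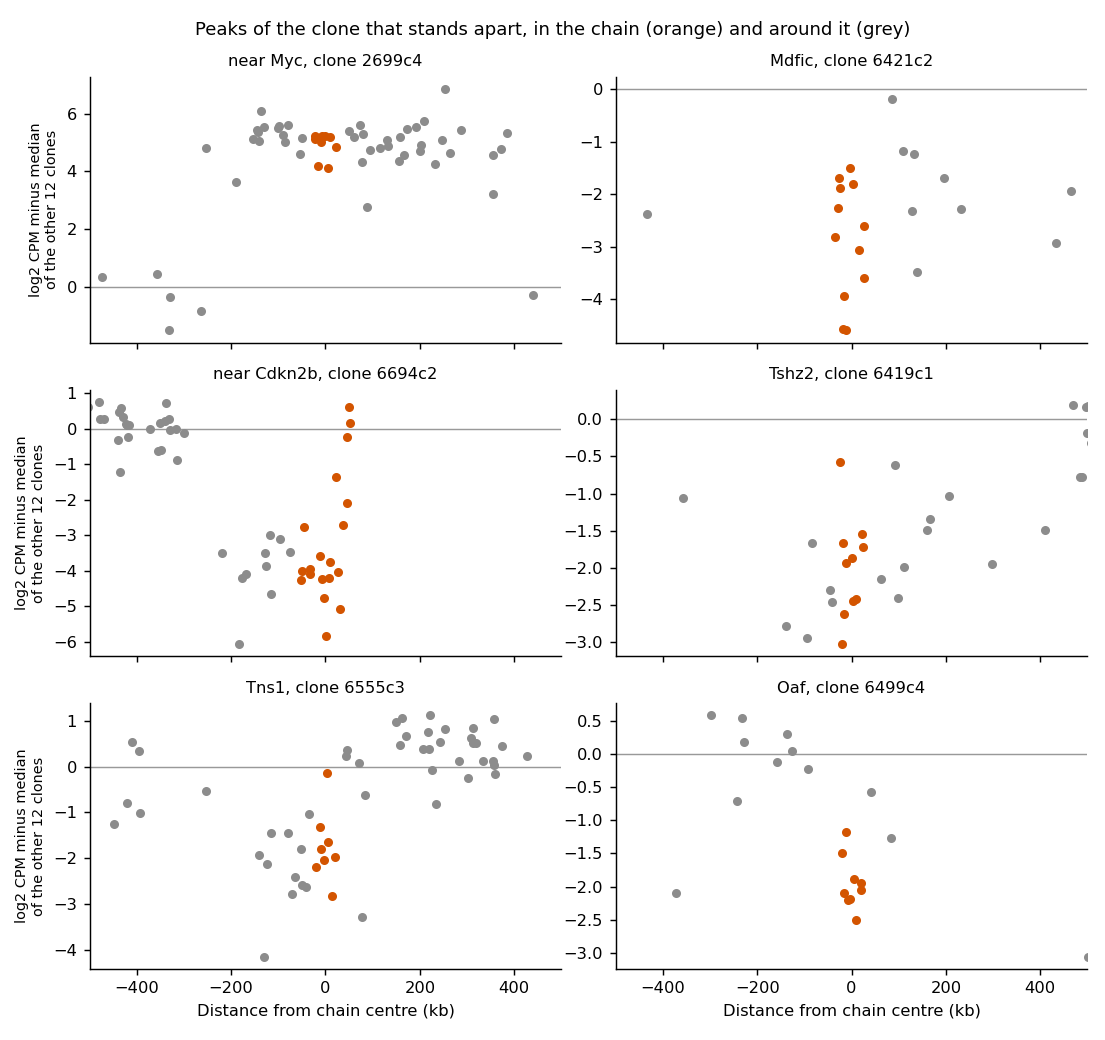
Difference of the clone that stands apart from the median of the other 12 clones (log2 CPM, y axis) for tested peaks up to 500 kb from the centre of 6 chains, orange inside the chain and grey outside. Near Myc the grey points on both sides share the rise, while at Oaf the 7 points within 250 kb before the chain have a median of 0.04 and farther points lie low again.

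By a description of pairs of clones, 6419c1 and 6419c5 were the closest of 78 pairs over the 471 chains, with a median absolute log2 difference of 0.17. They ranked 11 (0.18) after the regional signal was subtracted. The clones 6499c4 and 6499c3, which also share a number and differ in label, ranked 50 (0.31), and the farthest pair was 7160c2 and 6499c3 (0.41). The labels do not say whether clones that share a number have a common origin. The tests below take each clone as independent, which may not hold for such clones. Clones 6499c3 and 6421c2 were the highest in 103 and 93 chains. They lay at least 1 log2 unit above the chain's median in 9 and 12 chains, and in 1 and 0 after the regional signal was subtracted. The shallow libraries 7160c2 and 6556c3 were the lowest in 94 and 82, and the part of depth in this was not tested.

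The smallest spread was at Coq7, a gene of coenzyme Q synthesis (17 peaks, 224 to 309 CPM, SD 0.12). Chains at Cnnm4 (0.13), Atf3 (0.15) and Pacsin2 (0.16) were also among the 5 smallest. After subtraction of the regional signal the SD at Cnnm4, Atf3 and Coq7 rose to 0.17, 0.23 and 0.19. In 80 of the 471 chains the subtraction made the spread larger.

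By Pearson correlation of log2 CPM over the 13 clones, the chain most like that at Gab1 was at Ccdc34 on chromosome 2 (r = 0.92), then Rasgef1b (0.88) and Rbm47 (0.86). The chains most like Mdfic were Gipc2 (0.83), Cd9 (0.82) and Sgms1 (0.70). Those most like the chain near Cdkn2b were Trim26 (0.73), Hs6st1 (0.70) and Cd82 (0.68). For the chain near Myc the best match reached 0.60 (Per1). Near Myc, at Mdfic and near Cdkn2b most of the spread came from 1 clone. Without it the SD fell from 1.39 to 0.23, from 0.97 to 0.24 and from 0.78 to 0.33. These r values can therefore rest largely on the level of that clone at the other chain, and r without it was not computed.

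The comparison of T cell high with T cell low clones asks whether chromatin of the tumour cells differs with the T cells of the tumour. It called none of the 471 chains by edgeR's quasi-likelihood test with Benjamini-Hochberg adjustment over all 27493 chains tested, of which 0.00364% (1) passed. The smallest adjusted p of a dense chain was 0.571. At an unadjusted p under 0.05, 28 dense chains (5.94%) were found, 9 higher and 19 lower in high clones, beside 7.42% of all chains. DESeq2 called 0 dense chains, beside 0.124% of all chains (34), and limma-voom called 0, beside 0% of all. At an unadjusted p under 0.05 DESeq2 found 34 dense chains (7.22%), beside 8.44% of all, and limma-voom 33 (7.01%), beside 8.70% of all. The groups did not overlap in 0 dense chains, beside 0.142% of all chains. The median log2 fold change was 0.01 for the dense chains and 0.01 for all chains. Of 5690 tested peaks inside dense chains 0 passed by edgeR, as did 0% of all 58093 peaks, and 309 (5.43%) had an unadjusted p under 0.05, beside 6.89% of all. Limma-voom also called 0 member peaks, with 382 (6.71%) at an unadjusted p under 0.05, beside 8.56% of all peaks.

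Without 2838c3 (high), 3 of 5691 member peaks passed by edgeR, all higher in the remaining high clones. Of all 58076 peaks tested then, 0.0723% (42) passed, 38 of them higher, so the members' share is near the background. These were the peak over the Cldn3 window (log2 fold change 2.90, SE 0.45, adjusted p = 0.0150), a peak in the chain near Haao (2.07, SE 0.37, adjusted p = 0.0349) and a peak over a Trpm6 window (2.30, SE 0.44, adjusted p = 0.0427). With all clones their adjusted p values were 0.309, 0.531 and 0.497.

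The chain with the smallest p was at Ctnnb1, the gene of beta-catenin, which works in adherens junctions and WNT signalling (11 peaks, chr9:120866250-120934209). High clones had a lowest value of 97.5 CPM, a median of 173 CPM and a highest value of 282 CPM, and low clones 96.3, 106 and 154 CPM. Of the high clones 4 (159 to 282 CPM) lay above every low clone, and 6421c2 and 2838c3 lay among them. The log2 fold change was 0.69 (SE 0.21, edgeR adjusted p = 0.571), and it was 0.70 with regional offsets.

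The chain that holds Mettl27, Cldn4 and Cldn3 (11 peaks, chr5:134932168-134986567) covers 2 claudin genes, whose products seal tight junctions. High clones had a lowest value of 77.4 CPM, a median of 153 CPM and a highest value of 248 CPM, and low clones 39.8, 87.9 and 115 CPM. The clones 6555c3, 7160c2, 6499c4 and 6421c2 were above all low clones, and 2838c3 and 6620c1 were not. The log2 fold change was 0.86 (SE 0.27, edgeR adjusted p = 0.579). Within the chain the peak over the Cldn3 window, which holds 1 CACCTG match, had a log2 fold change of 2.64 (SE 0.56, edgeR adjusted p = 0.309). The peak over the Cldn4 window, with 2 matches each to CACCTG and TGANTCA, had 14.5 ± 9.45 CPM (SD, n = 6) in high and 8.49 ± 5.66 CPM (SD, n = 7) in low clones (log2 fold change 0.79, edgeR adjusted p = 0.786). The peak over the Mettl27 window had 19.5 ± 10.5 and 17.3 ± 9.07 CPM. The clones 6555c3 and 7160c2 had the highest values at the Cldn3 and Cldn4 peaks alike, 69.9 and 79.1 CPM and then 27.4 and 25.4 CPM.

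Near Myc the log2 fold change of -2.50 (SE 0.77, edgeR adjusted p = 0.571) rested on 2699c4: without that clone it was -0.19. The chain at Lamb3, a subunit of the epithelial laminin-332 (18 peaks, chr1:193319547-193425294), had 264 ± 61.5 CPM (SD, n = 6) in high and 185 ± 36.5 CPM (SD, n = 7) in low clones, which gave 0.52 as the log2 fold change (SE 0.18, edgeR adjusted p = 0.594). Its groups overlapped through 2838c3 (187 CPM) and 7160c2 (186 CPM). At Wfdc1, a gene of a secreted whey acidic protein domain factor, high clones had 85.5 to 116 CPM and low clones 113 to 163 CPM. The groups overlapped between 113 and 116 CPM, and the log2 fold change was -0.43 (SE 0.14, edgeR adjusted p = 0.583). The amyloid precursor binding adaptor gene Apbb2 had a log2 fold change of 0.45 (SE 0.17). Slc44a3, Lmna, Tmem154 and Exoc3l4 had -0.44, -0.41, -0.41 and -0.42, with edgeR adjusted p values of 0.617 to 0.633. With regional offsets, which subtract the surrounding 2 Mb, the value was 0.37 at Lamb3, -0.22 at Wfdc1, -0.17 at Slc44a3 and -0.20 at Exoc3l4.

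**Figure D5:**
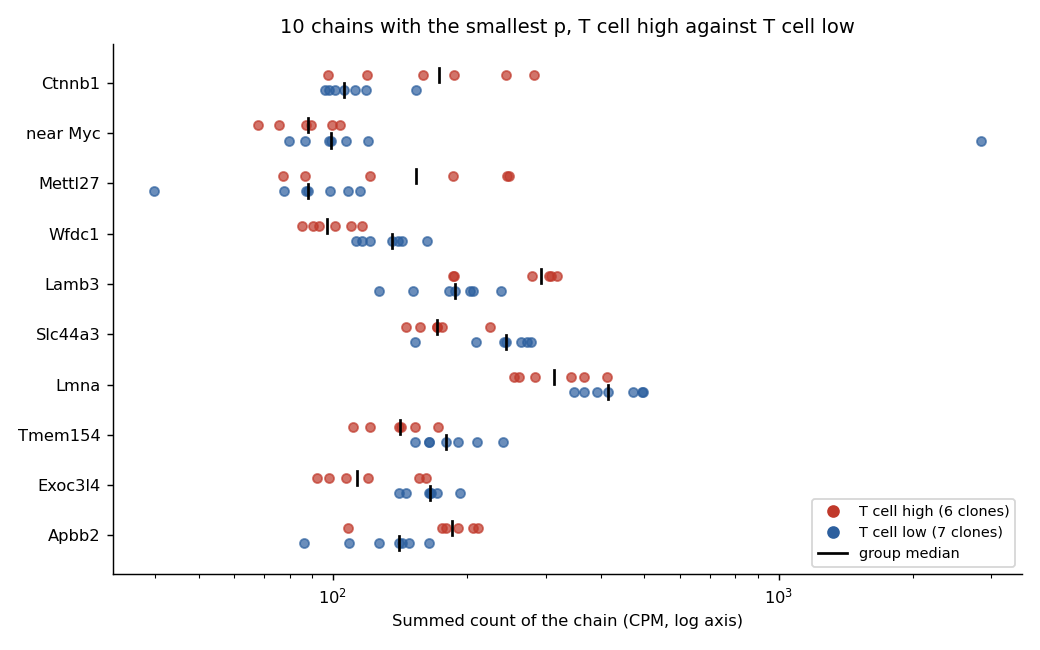
Summed level (CPM, log axis) of the 10 chains with the smallest p between labels, 1 point per clone, red for 6 T cell high and blue for 7 T cell low clones, with black bars at the group medians. In each of the 10 chains the groups overlap, as at Ctnnb1, where the high clones run from 97.5 to 282 CPM and the low clones from 96.3 to 154 CPM.

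Chromosome 3 gave 6 of the 19 chains lower in high clones at an unadjusted p under 0.05, Lmna, Tmem154, Slc44a3 and the Muc1 chain among them. All 33 dense chains of that chromosome had a log2 fold change below 0, with a median of -0.21. With regional offsets their median was -0.0019. The Lmna chain moved from -0.41 to -0.07, the Tmem154 chain from -0.41 to -0.05 and the Muc1 chain from -0.36 to -0.02. Over those 33 chains the median shift of a clone was lowest in 7160c2 (-0.51) and 6555c3 (-0.32) and highest in 6422c1 (0.24), 6499c3 (0.21) and 6419c5 (0.20), with 2838c3 (high) at 0.19 and 2699c4 (low) at -0.26. Clones of both labels lay on either side of 0. Other chromosomes had medians away from 0 too: -0.25 on chromosome 13, -0.21 on chromosome 16 (9 of 10 chains below 0), -0.17 on chromosome 15 (26 of 27 below 0), 0.13 on chromosome 5 (4 of 33 below 0) and 0.12 on chromosome 9 (2 of 21 below 0). With regional offsets the chromosome medians ran from -0.02 to 0.05. Whether DNA copies differed was not tested.

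By gene list, 0 chains passed the test in either direction. Of the 15 chains at AP-1 and RAS-MAPK feedback genes 1 had an unadjusted p under 0.05, the lower chain that holds Maff (log2 fold change -0.31), and their median was -0.02. Of 9 chains at epithelial genes 3 did, Lamb3 and the claudin chain higher and the Muc1 chain lower, with a median of 0.01. The chains at Cdh1 (-0.01), Krt8 and Krt18 (-0.07), Krt7 (0.10) and Cldn7 (-0.02) lay near 0. Of 6 chains at TGF-beta, BMP and WNT genes 1 did (Ctnnb1), and 0 of the 4 at pancreas and endoderm factors. Over all chains 7.42% did, and the lists hold too few chains to read their shares against it. The chain from Rassf6 to Cxcl3 had 402 ± 59.0 CPM in high and 353 ± 52.1 CPM in low clones, and that of Cxcl1 and Cxcl2, neutrophil chemokine genes, had 119.7 ± 19.5 and 116 ± 27.0 CPM.

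The share of autosomal counts inside dense chains was 9.50 ± 0.38% (SD, n = 6) in high and 9.57 ± 0.35% (SD, n = 7) in low clones. It ran from 8.88% in 7160c2, the shallowest library, to 9.98% in 6499c3. The difference of -0.07 percentage points was within the spread between clones (exact two-sided permutation test over 1716 groupings, p = 0.730).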

How the data were processed

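The deposited table holds raw counts of ATAC-seq reads in 67945 merged peaks, made by the authors with featureCounts 1.5.3, per the file header. The genome build mm10 and DESeq2 are named in the submitters' processing notes, while the aligner is not given in the sources used here, nor is the peak caller. Peaks of chromosomes X (1560) and Y (4) were left out. Columns were matched to clones by name, and gene records came from RefSeq (GRCm38.p6). The members and the gene lists were chosen with earlier results of these data known.

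Counts were summed per chain and tested with edgeR 4.0.16 (filterByExpr, TMM scaling, quasi-likelihood test on group, no covariate) over all autosomal chains, and the same was done for single peaks. Adjusted p values are Benjamini-Hochberg, with a threshold of 0.05. The log2 CPM used a prior count of 2. Shares of counts were compared by an exact permutation test. The edgeR step was tested on simulated counts. Alternatives were DESeq2 1.42.0, its size factors, limma 3.58.1 (voom), no filter, peaks over 1 kb from gene ends, chains without their strongest peak, regional offsets over 2 Mb, other gaps and a minimum of 20 peaks, and leaving out each clone.

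The chains named were the 10 with the most peaks, highest level and smallest p, the 10 with the largest and 5 with the smallest SD, and for each list the 3 with the most peaks; 1 of them is not reported here. Other chains named at gene lists and microRNAs were picked after their values were seen. A chain is called by the protein-coding gene that overlaps most of it, or by a listed gene inside it. Autosomal totals were 953905 to 7180908 counts. Clones were numbered by accession within a label, so the numbers pair no samples.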

Additional observations from a re-analysis of the deposited data

Results flagged for a closer look

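Named chains were checked for a clone whose gap to its nearest neighbour took more of its group's range in log2 CPM than Dixon's 95% limit allows. Of 118 tests 13 passed. Chance passes about 1 in 20, but many of these chains were named for a large spread or a small p, so their number cannot be set against that rate. The share of the range is given first for each.

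Near Myc it was 0.8862 for 2699c4, at 2845 CPM against 119.8 CPM in the next low clone. At Mdfic it was 0.8603 for 6421c2 (19.1 against 185 CPM), and near Cdkn2b 0.7955 for 6694c2 (47.4 against 212 CPM). At Tshz2 it was 0.7342 for 6419c1 (19.5 against 77.8 CPM). The Oaf chain was found in both groups, with 0.6335 for 6499c4 as the lowest high clone (20.1 against 74.0 CPM) and 0.7499 for 6422c1 as the highest low clone (214 against 109.6 CPM).

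The claudin chain at Mettl27 gave 0.6280 for 6499c3 (39.8 against 77.8 CPM). The Dusp1 chain, named for Ergic1, gave 0.6797 for 6499c3 (416 against 274 CPM). At Gata4, a gene of an endoderm factor, 6620c1 was lowest (0.6703, 125 against 189 CPM). The chain at Krt78, Krt8 and Krt18 gave 0.6751 for 2838c3 (279 against 347 CPM). The Tgm2 chain at D630003M21Rik gave 0.6579 for 2699c4 (182 against 275 CPM). At Apbb2 it was 0.7292 for 7160c2 (108 against 176 CPM), and at Coq7 0.6303 for 6620c1 (309 against 264 CPM). The cause of these gaps was not tested.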

How the results depend on the processing

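No dense chain was called under any alternative or with any clone left out. The number of member peaks called ran from 0 to 3 with 1 clone left out, the 3 coming without 2838c3. The difference in the share of counts inside dense chains ran from -0.1624 to 0.0510 percentage points with 1 clone left out, turning positive without 7160c2, and was 0.0041 with a gap of 5000 bp and -0.4689 with a gap of 25000 bp; the cause was not tested. The 10 log2 fold changes printed for the smallest p kept their direction under all 7 alternatives and with each clone left out. These chains were picked by their p in the same data, so a kept direction is no separate support. Sizes did change. With regional offsets the log2 fold change at Tmem154 went from -0.41 to -0.05. The one near Myc was -0.17 by DESeq2 and -0.93 by limma-voom. The median spread over the chains was 0.23 to 0.31 under its 4 alternatives, and the SD at Mdfic, Zfp618 and Pacsin2 fell to 0.77, 0.41 and 0.11 after subtraction of the regional signal. No paired analysis was possible because only 1 number in the clone names, that of 6499c4 and 6499c3, occurs in both groups. Library depth differed 7.53-fold between clones, DNA copy number was not measured, and 1 chain had too few regional peaks for a regional value.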
